A study of Homo sapiens with 15 samples.

Results

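The nuclear pore complex genes are 32 genes taken from a list of gene symbols, and all 32 were found among the 62703 genes of the HEK293T count table and the 35595 genes of the HuCCT1 count table. All 32 also passed the filter on low counts in both lines, which kept 15882 genes in HEK293T and 15007 genes in HuCCT1. RNA was sequenced after ribosomal RNA depletion from 15 libraries in 5 groups of 3. HEK293T is a human embryonic kidney line that carries the SV40 large T antigen, and its groups were labelled Ctrl, SNRPD2KO and PUS7KO. HuCCT1 is a human bile duct cancer (cholangiocarcinoma) line, and its groups were labelled Ctrl and SNRPD2KO. The knockouts were made with CRISPR-Cas9. The product of SNRPD2 is SmD2, which belongs to the ring of Sm proteins around spliceosomal RNAs, and PUS7 encodes a pseudouridine synthase of mRNA and tRNA. The series was designed to ask how SmD2 and pseudouridine interact, in HEK293T and in a bile duct cancer line. Whether a labelled group was 1 clone or a pool, and whether its 3 libraries came from separate cultures, is not given in the sources used here, so the p-values measure only the spread between these libraries, which may be technical.

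The targeted genes were read first as a check of the labels. SNRPD2 measured 195, 168 and 181 CPM (counts scaled to library size and composition, to a common total) in HEK293T Ctrl and 309, 285 and 245 CPM in the libraries labelled SNRPD2KO. In HuCCT1 it measured 159.5, 146 and 157 CPM in Ctrl and 259, 285 and 318 CPM in the libraries labelled SNRPD2KO. SNRPD2 RNA was therefore higher, not lower, in these libraries of both lines (log2 fold change 0.62, adjusted p = 4.86e-05, in HEK293T; 0.90, adjusted p = 1.82e-06, in HuCCT1), and it was also higher in PUS7KO than in Ctrl (0.52). The RNA level thus does not bear out the label, and whether SmD2 protein was lost was not measured in these RNA data. The phrase "the libraries labelled SNRPD2KO" is therefore used throughout, and every direction against Ctrl below holds only as far as the labels do. PUS7 measured 25.9 to 26.9 CPM in HEK293T Ctrl and 13.6 to 18.1 CPM in PUS7KO, a log2 fold change of -0.72 (adjusted p = 6.72e-05). The libraries held 7944276 to 11270267 counts in HEK293T and 13776166 to 16795618 in HuCCT1. A list of 8 bile duct epithelial markers summed to between 11852 and 12794 CPM in HuCCT1 and between 213 and 370.2 CPM in HEK293T, while 4 leukocyte markers (2 of them in the HuCCT1 table) stayed at or below 3.64 CPM in every library. The 4 fibroblast markers summed to 9.25 to 10.9 CPM in HuCCT1 Ctrl and 16.4 to 17.2 CPM in its libraries labelled SNRPD2KO, and 5 HEK293T markers to 802 to 988 CPM in HEK293T Ctrl, 692 to 761 CPM in the libraries labelled SNRPD2KO and 805 to 883 CPM in PUS7KO. The part of these shifts in the results below was not tested. In bulk RNA, fewer cells of a kind and less RNA per cell cannot be told apart.

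The nuclear pore complex is the channel through which proteins and RNA cross the nuclear envelope. Scaffold proteins form an outer ring (the Y complex) and an inner ring, transmembrane proteins anchor them in the envelope, and proteins rich in phenylalanine-glycine repeats fill the central channel and make the permeability barrier. Filaments on the cytoplasmic side release exported mRNA and disassemble export complexes, and a basket on the nuclear side receives mRNA and takes part in recycling import receptors. Scaffold proteins of the pore are among the longest-lived proteins of a cell.

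Promoters are shown for TPR, RAE1, NUP50, NUP210 and NUP188, since the results below turn on these genes, which were chosen after their values were seen. Each runs from 250 bases before to 50 bases after the RefSeq start (assembly GRCh38.p14, 5′ to 3′). Capitals mark matches, on either strand, to any of 8 motifs. TPR lies on the minus strand at chr1:186375204-186375503, RAE1 on the plus strand at chr20:57351292-57351591, NUP50 on the plus strand at chr22:45163675-45163974, NUP210 on the minus strand at chr3:13420273-13420572 and NUP188 on the plus strand at chr9:128947449-128947748.
TPR: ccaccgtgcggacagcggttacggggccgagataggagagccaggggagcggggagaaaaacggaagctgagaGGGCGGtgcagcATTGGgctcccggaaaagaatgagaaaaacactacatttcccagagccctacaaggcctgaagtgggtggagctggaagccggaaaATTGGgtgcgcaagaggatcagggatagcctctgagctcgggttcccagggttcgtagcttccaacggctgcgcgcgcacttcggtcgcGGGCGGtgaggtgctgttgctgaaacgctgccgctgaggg
RAE1: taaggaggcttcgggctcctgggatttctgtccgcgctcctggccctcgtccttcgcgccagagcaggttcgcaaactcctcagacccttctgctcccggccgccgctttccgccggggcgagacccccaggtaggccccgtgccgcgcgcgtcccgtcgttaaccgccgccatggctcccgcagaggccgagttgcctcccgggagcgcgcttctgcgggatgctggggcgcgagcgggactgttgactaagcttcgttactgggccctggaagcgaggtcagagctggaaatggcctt
NUP50: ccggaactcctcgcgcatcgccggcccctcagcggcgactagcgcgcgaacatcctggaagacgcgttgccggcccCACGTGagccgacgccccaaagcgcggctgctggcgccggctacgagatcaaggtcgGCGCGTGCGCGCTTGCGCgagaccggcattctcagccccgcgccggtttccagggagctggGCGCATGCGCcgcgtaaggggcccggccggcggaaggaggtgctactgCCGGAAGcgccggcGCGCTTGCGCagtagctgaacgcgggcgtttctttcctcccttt
NUP210: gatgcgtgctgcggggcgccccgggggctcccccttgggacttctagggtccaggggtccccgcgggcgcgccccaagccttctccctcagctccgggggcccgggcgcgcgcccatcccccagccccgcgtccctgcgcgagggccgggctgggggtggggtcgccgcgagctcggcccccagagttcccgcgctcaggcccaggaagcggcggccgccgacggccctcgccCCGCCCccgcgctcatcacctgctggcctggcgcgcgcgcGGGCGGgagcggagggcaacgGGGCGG
NUP188: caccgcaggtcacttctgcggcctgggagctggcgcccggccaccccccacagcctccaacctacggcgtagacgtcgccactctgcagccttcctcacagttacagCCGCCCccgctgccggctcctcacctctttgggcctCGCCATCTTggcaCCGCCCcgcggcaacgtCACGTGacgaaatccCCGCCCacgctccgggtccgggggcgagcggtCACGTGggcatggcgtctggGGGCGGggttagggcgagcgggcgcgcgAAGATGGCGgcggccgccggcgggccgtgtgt

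The motifs searched were the NRF1 motif, the ETS motif CCGGAAG, the CCAAT box CCAAT, the GC box GGGCGG, the E-box CACGTG, the YY1 motif AAGATGGCG, the cyclic AMP response element TGACGTCA and the ATF4 element TGATGNAA, each on both strands; a GC box and an ETS or NRF1 match may overlap. The table held a promoter for 29 of the 32 genes. The ETS letters were in 13 of these 29 (44.8%) and in 10.7% of all 27305 promoters of the same length. The near-identical copies POM121 and POM121C are both among the 13. All members passed the count filter, whereas the 27305 promoters were not limited to genes that did, so the shares here and below compare unlike sets. The YY1 letters were in 4 (13.8%, against 1.85%), the cyclic AMP element in 3 (10.3%, against 1.98%) and the NRF1 letters in 4 (13.8%, against 6.28%). The CCAAT box (37.9% against 35.7%), the GC box (41.4% against 44.6%), the E-box (6.9% against 7.43%) and the ATF4 element (3.45% against 3.67%) were about as frequent as in all promoters. Of the sequences shown, the NUP50 promoter held NRF1, ETS and E-box letters, that of NUP188 held GC boxes, E-boxes and YY1 letters, that of TPR CCAAT and GC boxes, that of NUP210 GC boxes only, and that of RAE1 none of the 8. A match describes letters and is neither a bound site nor a cause.

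Across the 32 genes, RNA of some members rose and that of others fell in each comparison with Ctrl, and the groups of the pore differed in direction. In HEK293T, the summed level of the 32 was 3081 ± 10.2 CPM in Ctrl (SD, n = 3), 3299 ± 32.4 CPM in the libraries labelled SNRPD2KO and 3148 ± 8.84 CPM in PUS7KO. In HuCCT1 it was 2657 ± 44.6 CPM in Ctrl and 2636 ± 43.4 CPM in the libraries labelled SNRPD2KO. Between HEK293T Ctrl and the libraries labelled SNRPD2KO, the sum of the inner ring was 1007 ± 50.9 and 1158 ± 11.2 CPM, and that of the membrane ring 263 ± 20.3 and 364.6 ± 17.9 CPM. No test was run on these sums. Over the same groups the sum of the nuclear basket was 390.5 ± 20.9 and 262 ± 13.2 CPM. In HuCCT1 the order was the other way round, with the basket at 334.2 ± 15 and 398.9 ± 8.67 CPM and the membrane ring at 455.3 ± 11.4 and 351.1 ± 24.2 CPM. The basket value rested on TPR: without it, the basket summed to 309.9 ± 14.1 and 222.4 ± 4.12 CPM, and all members to 2632 ± 43.2 and 2459 ± 40.5 CPM. Of the membrane ring genes, NUP210, POM121 and POM121C passed edgeR's quasi-likelihood test with the same sign in both lines, although the sum changed direction. NDC1 and AAAS were called higher in HEK293T only. In HuCCT1 their log2 fold changes were 0.08 (adjusted p = 0.31) and 0.06 (adjusted p = 0.497). Mean NUP210 went from 67.8 to 164 CPM in HEK293T and from 36.2 to 60.3 CPM in HuCCT1. In HEK293T this gene made up most of the rise of the membrane ring sum, while 3 of the ring's 5 genes were called higher and 2 lower. POM121 and POM121C were lower in both lines, and in HuCCT1 their means went from 135 to 84.3 CPM and from 192 to 110 CPM.

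The calls were made with edgeR's quasi-likelihood test over all genes of a line, with Benjamini-Hochberg adjustment and a threshold of 0.05. In HEK293T, 15 members were higher and 9 lower in the libraries labelled SNRPD2KO than in Ctrl, which is 75% of the 32, beside 53.3% of all genes tested (26.9% higher and 26.4% lower). Of the 32, 16 lay wholly above and 9 wholly below the Ctrl range, beside 59.5% of all genes without overlap (30.3% higher and 29.2% lower). PUS7KO was compared with the same Ctrl libraries: 11 members were higher and 9 lower (62.5%, beside 49.4% of all genes, 25.6% higher and 23.8% lower), and 11 lay above and 9 below the Ctrl range (57.2% of all genes, 29.7% higher and 27.5% lower). In HuCCT1, 9 members were higher and 11 lower in the libraries labelled SNRPD2KO (62.5%, beside 57.2% of all genes, 28.8% higher and 28.4% lower), and 12 lay above and 11 below (63.5% of all genes, 31.9% higher and 31.6% lower). The share of members called was thus near that of all genes in HuCCT1. The median log2 fold change of the 32 was 0.09, -0.03 and 0.08 in these comparisons, and that of all genes 0.02, 0.01 and 0.00. Removing the trend with transcript GC content moved several called values in the HEK293T libraries labelled SNRPD2KO by over 1.5 times. TPR went from -0.86 to -0.52, RANBP2 from -0.62 to -0.21, AHCTF1 from -0.68 to -0.36 and POM121 from -0.28 to -0.49, all still past the threshold. NUP37 went from 0.60 to 1.06, NDC1 from 0.21 to 0.51, NUP155 from 0.19 to 0.43 and NUP43 from 0.25 to 0.48, also still past it. NUP58, from -0.37 to -0.14 (adjusted p = 0.148), and NUP153, from -0.26 to -0.15 (adjusted p = 0.0653), no longer passed. The members called in every alternative analysis were 15 of 24, 15 of 20 and 14 of 20.

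**Figure D1:**
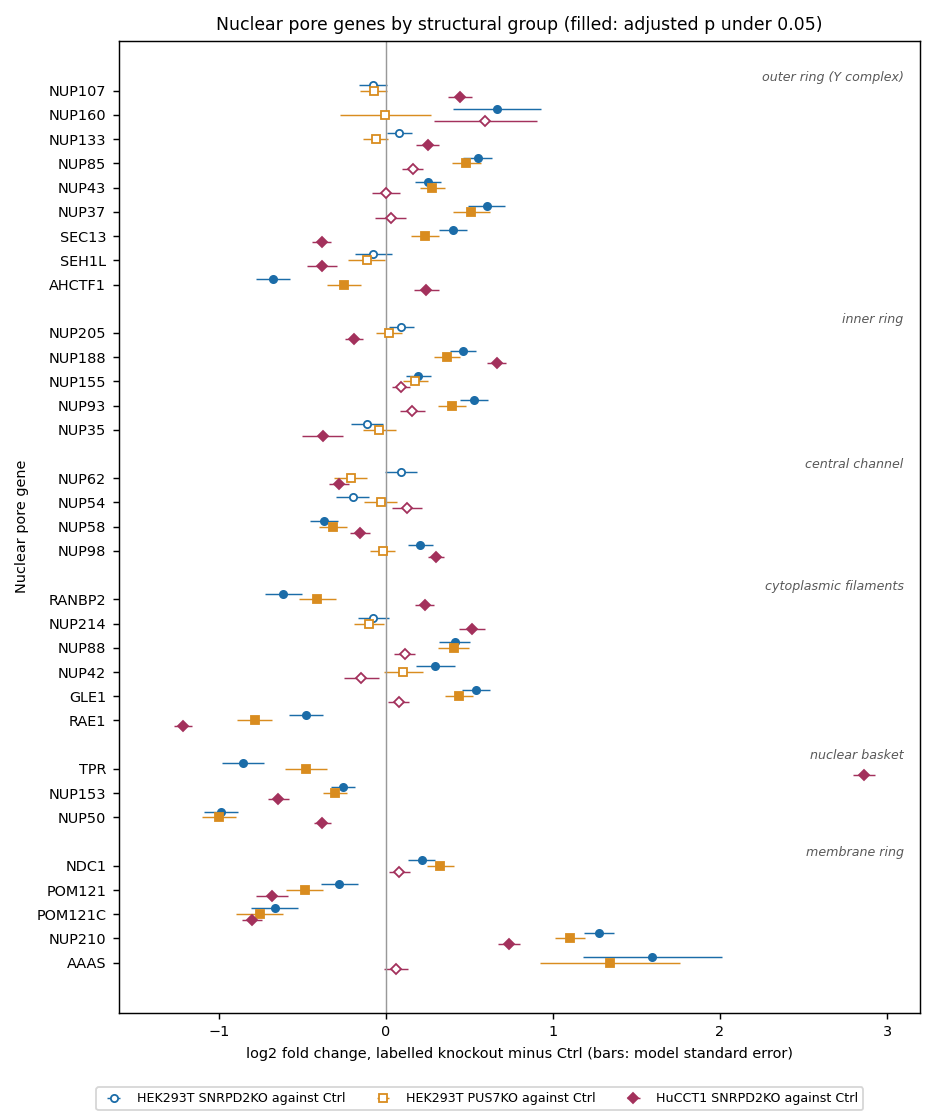
Log2 fold changes of the 32 genes against Ctrl of the same line, by structural group, with model standard errors; filled symbols passed the adjusted threshold of 0.05. TPR in HuCCT1, at 2.86, lies beyond all other points, and both HEK293T comparisons share their Ctrl libraries.

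The nuclear basket held the member with the widest range. TPR forms the filaments of the basket. In HuCCT1 it measured 23.3, 25.9 and 23.6 CPM in Ctrl and 181, 172 and 177 CPM in the libraries labelled SNRPD2KO. The groups were far apart, with a ratio of mean CPM of 7.27 and a log2 fold change of 2.86 ± 0.07 (SE, n = 3 a group, adjusted p = 8.47e-10 by edgeR's quasi-likelihood test). By log2 fold change it stood at place 26 from the top of the 15007 genes tested. In HEK293T, TPR went the other way, from 111, 117 and 140.2 CPM in Ctrl to 58.7, 64 and 80.6 CPM in the libraries labelled SNRPD2KO and 76.9, 101 and 86.5 CPM in PUS7KO. Both groups lay below the Ctrl range (log2 fold change -0.86, adjusted p = 2.61e-05, and -0.48, adjusted p = 0.00421).

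NUP50, which helps to release cargo from importin alpha at the basket, was lower in every comparison with Ctrl. In HEK293T it measured 80.7, 92.9 and 95 CPM in Ctrl, 48.2, 41.3 and 46.1 CPM in the libraries labelled SNRPD2KO and 42.1, 50.8 and 41.3 CPM in PUS7KO. All 6 libraries of these groups lay below all Ctrl libraries (-0.99, adjusted p = 6.31e-07, and -1.0, adjusted p = 7.37e-07). In HuCCT1 it fell from 181, 195 and 193 CPM to 147, 145 and 144 CPM, again without overlap (-0.38, adjusted p = 8.43e-05). NUP153, which anchors the basket to the nuclear ring, was lower in HEK293T by a small amount (-0.26 and -0.31) and in HuCCT1 by more (-0.65, adjusted p = 6.1e-06). Its ranges were 177 to 179 CPM in HEK293T Ctrl and 140.5 to 151 CPM in the 6 libraries labelled SNRPD2KO or PUS7KO, and 113 to 127 against 73.4 to 79.2 CPM in HuCCT1. The 3 basket genes all passed the test in all 3 comparisons with Ctrl, beside 53.3%, 49.4% and 57.2% of all genes. TPR in HuCCT1 was the 1 case that rose, and both HEK293T comparisons share their Ctrl libraries. When the trend with transcript GC content was removed, NUP153 in HEK293T no longer passed for the libraries labelled SNRPD2KO (-0.15, adjusted p = 0.0653). With no count filter NUP153 passed in neither HEK293T comparison (-0.18, adjusted p = 0.145, and -0.22, adjusted p = 0.0675).

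**Figure D2:**
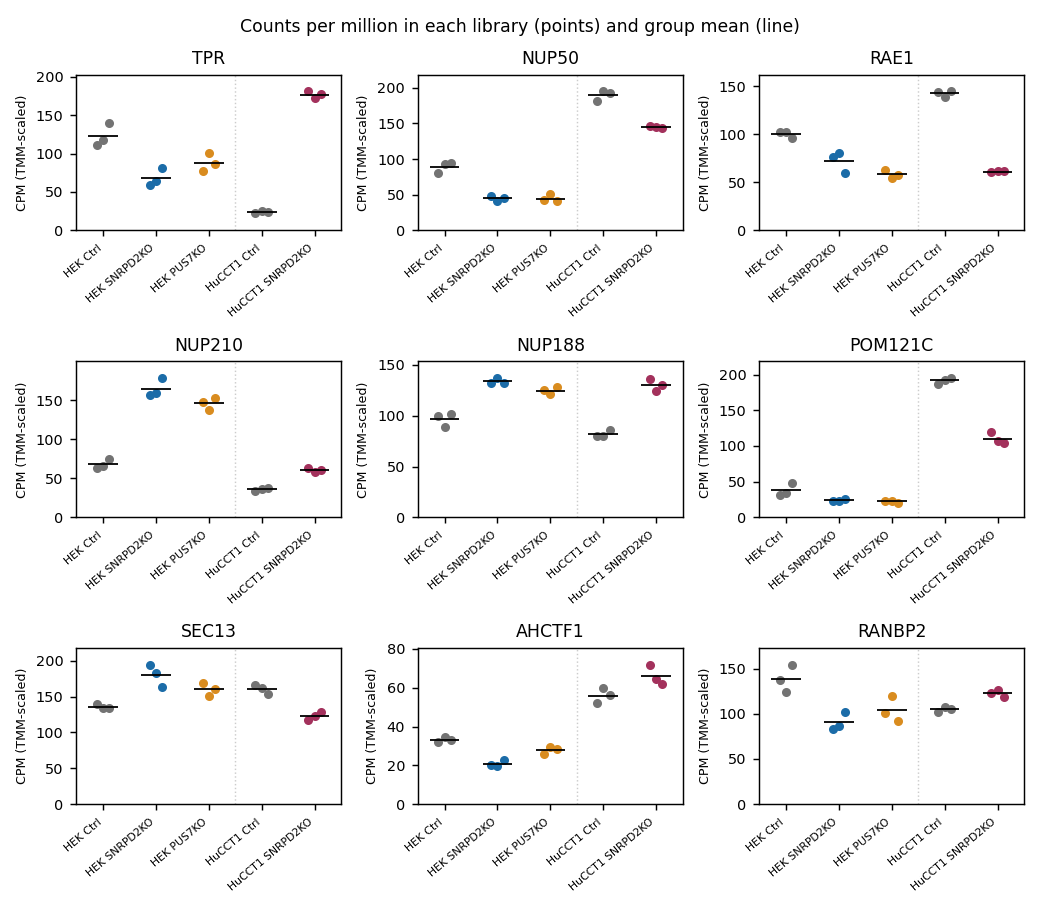
CPM in each library (points) and group mean (line) for 9 genes; each panel starts at 0. TPR, AHCTF1 and RANBP2 moved in opposite directions in the 2 lines, SEC13 in the reverse sense, and NUP50, RAE1 and POM121C were below Ctrl in both.

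The membrane ring split by gene, with NUP210 higher and the POM121 pair lower in both lines. NUP210 is a large transmembrane protein whose amount differs between cell types. It measured 63.5, 66 and 74 CPM in HEK293T Ctrl, 156, 159 and 178 CPM in the libraries labelled SNRPD2KO and 148, 137 and 153 CPM in PUS7KO. Both groups stood wholly above Ctrl, with log2 fold changes of 1.27 (adjusted p = 1.22e-08) and 1.10 (adjusted p = 7.23e-08). In HuCCT1 it rose from 34.2, 36.8 and 37.7 CPM to 62.8, 57.7 and 60.3 CPM (0.74, adjusted p = 3.15e-06).

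POM121 and POM121C are near-identical copies that join the pore to the membrane, and reads from one could be counted for the other. POM121C measured 31.4, 33.6 and 48.4 CPM in HEK293T Ctrl, 22.9, 23.3 and 25.3 CPM in the libraries labelled SNRPD2KO and 23.3, 23.4 and 20.3 CPM in PUS7KO. All 6 libraries of these groups lay below Ctrl (-0.67, adjusted p = 0.000731, and -0.76, adjusted p = 0.000298). In HuCCT1 it fell from 187, 193 and 195 CPM to 119, 107 and 104 CPM (-0.80, adjusted p = 9.21e-07). POM121 measured 40.5, 45.9 and 55.8 CPM in HEK293T Ctrl, 37.7, 37.4 and 42.1 CPM in the libraries labelled SNRPD2KO, which overlapped, and 33.5, 33.5 and 34.7 CPM in PUS7KO, which did not. Its log2 fold change was -0.28 (adjusted p = 0.0402) and -0.49 (adjusted p = 0.00157). The first of these depended on single libraries: it was -0.14 (adjusted p = 0.288) without Ctrl replicate 3, and did not pass (adjusted p = 0.0522 to 0.144) without Ctrl replicate 2, SNRPD2KO replicate 1 or 2, or any PUS7KO library. The first also did not pass with limma voom (adjusted p = 0.0528). In HuCCT1, POM121 fell from 132, 141 and 133 CPM to 100.2, 75.5 and 77.3 CPM (-0.68, adjusted p = 0.000113).

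NDC1, the most conserved transmembrane nucleoporin, passed only in HEK293T: it measured 99.8 to 112 CPM in Ctrl, 118 to 125 CPM in the libraries labelled SNRPD2KO (0.21, adjusted p = 0.0377) and 124 to 142 CPM in PUS7KO (0.32, adjusted p = 0.00348). The first did not pass without Ctrl replicate 1 or 3 or SNRPD2KO replicate 1 or 3 (adjusted p = 0.0528 to 0.138), nor with DESeq2 (adjusted p = 0.0733). In HuCCT1 it gave 0.08 (adjusted p = 0.31), and the difference between the lines did not pass either (-0.18, adjusted p = 0.167). AAAS encodes ALADIN, which binds NDC1 and is mutated in triple A syndrome. It was scarce and scattered in HEK293T, at 8.64, 3.41 and 2.94 CPM in Ctrl (81, 30 and 26 counts), 18.2, 12.9 and 14.7 CPM in the libraries labelled SNRPD2KO and 23.3, 6.41 and 8.82 CPM in PUS7KO. The libraries labelled SNRPD2KO stood above Ctrl (1.59, adjusted p = 0.00383), whereas PUS7KO overlapped Ctrl (1.34, adjusted p = 0.0137). The PUS7KO value was 0.60 (adjusted p = 0.163) without PUS7KO replicate 1, and 1.13 and 1.08 (adjusted p = 0.0626 and 0.0672) without Ctrl replicate 2 and 3. With DESeq2 the PUS7KO value was 1.34 and did not pass (adjusted p = 0.0629). In HuCCT1 AAAS measured 37.8 to 38.9 CPM in Ctrl and 37.8 to 43 CPM in the libraries labelled SNRPD2KO (0.06, adjusted p = 0.497).

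Among the cytoplasmic filament genes, RAE1 fell in every comparison with Ctrl. RAE1 binds NUP98 and takes part in mRNA export and in the mitotic spindle. It measured 103, 103 and 96.4 CPM in HEK293T Ctrl, 76.8, 81.1 and 59.9 CPM in the libraries labelled SNRPD2KO and 62.6, 54.7 and 58.2 CPM in PUS7KO. Neither group reached the lowest Ctrl library (-0.48, adjusted p = 0.000836, and -0.79, adjusted p = 1.07e-05). The fall was larger in HuCCT1, from 144, 139 and 145 CPM to 60.8, 61.4 and 61.9 CPM (-1.22 ± 0.05, adjusted p = 2.8e-08), with Ctrl 2.33 times as high.

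RANBP2 builds the filaments, binds RanGAP1 and acts as a SUMO ligase. A list of 12 relatives of pore genes, among them the near-identical RGPD family, summed to 35.1 to 47.8 CPM in HEK293T and 8.23 to 14.8 CPM in HuCCT1, and reads could be shared with RANBP2. RANBP2 measured 137, 124 and 154 CPM in HEK293T Ctrl, 83.3, 86.4 and 102 CPM in the libraries labelled SNRPD2KO and 101, 119.5 and 92.4 CPM in PUS7KO. It was below Ctrl in both (-0.62, adjusted p = 0.000183, and -0.41, adjusted p = 0.00506), by less with the GC trend removed (-0.21, adjusted p = 0.0454, and -0.25, adjusted p = 0.0228). In HuCCT1 it was above Ctrl, at 123, 126 and 119 CPM against 102, 108 and 105 CPM (0.23, adjusted p = 0.00394), a call that did not pass once the GC trend was removed (0.12, adjusted p = 0.0568).

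The other 4 filament genes act with these in mRNA release. GLE1, which activates the helicase DDX19 at the pore, was higher in both HEK293T comparisons (0.54 and 0.44) and gave 0.07 in HuCCT1 (adjusted p = 0.33). NUP88, the partner of NUP214, was higher by 0.41 and 0.40 in HEK293T and gave 0.11 (adjusted p = 0.148) in HuCCT1. NUP214 gave -0.08 and -0.10 in HEK293T without passing, and rose in HuCCT1 from 78.7 to 95.6 CPM in Ctrl to 115 to 129 CPM (0.51, adjusted p = 0.000205). NUP42, which binds GLE1, passed only in the libraries labelled SNRPD2KO of HEK293T (0.29, adjusted p = 0.0436), a call lost without Ctrl replicate 1 or SNRPD2KO replicate 1 or 2 (adjusted p = 0.0756 to 0.216). The same call was lost with DESeq2 (adjusted p = 0.105) and limma voom (adjusted p = 0.0506), among other alternative analyses.

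In the outer ring of 9 genes, 5 were higher and 1 lower in the libraries labelled SNRPD2KO of HEK293T, 4 higher and 1 lower in PUS7KO, and 3 higher and 2 lower in HuCCT1. These are 66.7%, 55.6% and 55.6% of the ring, near the shares of all genes (53.3%, 49.4% and 57.2%). NUP37 measured 33.7, 39.6 and 28.3 CPM in HEK293T Ctrl, 54.9, 51.9 and 47.9 CPM in the libraries labelled SNRPD2KO and 45.9, 48 and 51 CPM in PUS7KO. All 6 stood above Ctrl (0.60, adjusted p = 0.000249, and 0.51, adjusted p = 0.00123), and HuCCT1 gave 0.03 (adjusted p = 0.819). NUP85, a scaffold arm of the Y, was higher in both HEK293T comparisons (0.55 and 0.48), as was NUP43 (0.25 and 0.28), while in HuCCT1 they gave 0.16 (adjusted p = 0.0583) and 0.00 (adjusted p = 0.997).

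SEC13, which is also a coat protein of COPII vesicles, moved in opposite directions in the 2 lines. In HEK293T it measured 140.2, 134 and 134 CPM in Ctrl, 194, 183 and 163 CPM in the libraries labelled SNRPD2KO and 169, 150.1 and 161 CPM in PUS7KO. Both were above Ctrl (0.40, adjusted p = 0.000729, and 0.23, adjusted p = 0.0303), though the second did not pass without Ctrl replicate 2 or 3 or PUS7KO replicate 1 or 3 (adjusted p = 0.0517 to 0.102). The second also did not pass with the GC trend removed (0.16, adjusted p = 0.0846). In HuCCT1 it fell from 166, 162 and 154 CPM to 118, 123 and 129 CPM (-0.39, adjusted p = 0.000148).

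AHCTF1 (ELYS) brings the Y complex to chromatin when pores form after mitosis. It measured 32.2, 34.4 and 33 CPM in HEK293T Ctrl, 20, 19.6 and 22.6 CPM in the libraries labelled SNRPD2KO and 25.6, 29.6 and 28.6 CPM in PUS7KO. The 3 groups did not overlap, at -0.68 (adjusted p = 4.17e-05) and -0.25 (adjusted p = 0.0498), and the second was lost whichever of the 9 libraries was left out (adjusted p = 0.0528 to 0.237). In HuCCT1 AHCTF1 rose from 52.1, 59.6 and 56 CPM to 71.7, 64.3 and 62 CPM (0.24, adjusted p = 0.0179), but gave 0.19 (adjusted p = 0.0823) without Ctrl replicate 1 and 0.15 (adjusted p = 0.0821) with the GC trend removed. With that trend removed the HEK293T values were -0.36 (adjusted p = 0.00377) and -0.11 (adjusted p = 0.301).

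NUP107, a core subunit of the Y, gave -0.08 (adjusted p = 0.433) and -0.07 (adjusted p = 0.465) in HEK293T and rose in HuCCT1 from 42.2, 41.3 and 45 CPM to 54.9, 63.7 and 56 CPM (0.44, adjusted p = 0.000339). NUP133, at the tip of the Y, also passed only in HuCCT1 (0.25, adjusted p = 0.0101), and gave 0.21 (adjusted p = 0.0515) without Ctrl replicate 3. SEH1L gave -0.08 and -0.12 in HEK293T and fell in HuCCT1 from 67.6 to 74.9 CPM to 47.8 to 61.9 CPM (-0.38, adjusted p = 0.00353). Within the outer ring NUP160 was the most scattered: 11.1, 25.6 and 30.8 CPM in PUS7KO and 20.4, 40.8 and 14.8 CPM in the HuCCT1 libraries labelled SNRPD2KO. Its call in HEK293T (0.66, adjusted p = 0.0441) did not pass without Ctrl replicate 1 or 2 or SNRPD2KO replicate 1 or 3 (adjusted p = 0.113 to 0.134), and was singled out here after its values were seen. The same call was lost with DESeq2 (adjusted p = 0.208) and limma voom (adjusted p = 0.0706), and the libraries labelled SNRPD2KO overlapped Ctrl.

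In the inner ring, NUP188 was higher in all 3 comparisons with Ctrl and NUP93 in both HEK293T comparisons. NUP188, a large solenoid scaffold protein, measured 99.5, 88.4 and 102 CPM in HEK293T Ctrl, 132, 137 and 132 CPM in the libraries labelled SNRPD2KO and 125, 121 and 128 CPM in PUS7KO. It was above Ctrl in both (0.46, adjusted p = 0.000125, and 0.37, adjusted p = 0.00115). In HuCCT1 it rose from 80.4, 80.2 and 85.8 CPM to 136, 124 and 130 CPM (0.66, adjusted p = 3.22e-06).

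NUP93, the hub of the inner ring, measured 102, 98.9 and 99.8 CPM in HEK293T Ctrl, 154, 144 and 137 CPM in the libraries labelled SNRPD2KO and 132, 121 and 143 CPM in PUS7KO. It was higher without overlap in both (0.53, adjusted p = 5.6e-05, and 0.39, adjusted p = 0.000932), and gave 0.16 (adjusted p = 0.1) in HuCCT1. NUP205, the paralog of NUP188, gave 0.09 and 0.02 in HEK293T without passing and was slightly lower in HuCCT1 (-0.19, adjusted p = 0.0095), a call that was lost without Ctrl replicate 2 (-0.16, adjusted p = 0.0546). NUP155, which contacts the membrane, passed only in the libraries labelled SNRPD2KO of HEK293T (0.19, adjusted p = 0.0399), and not without Ctrl replicate 2 or 3 or SNRPD2KO replicate 1 or 2 (adjusted p = 0.052 to 0.111). That call was also lost with DESeq2 (adjusted p = 0.0522). NUP35 passed only in HuCCT1 (-0.38, adjusted p = 0.0205), and not without Ctrl replicate 2 or 3 or SNRPD2KO replicate 1 or 2 (adjusted p = 0.0581 to 0.0926).

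The 4 central channel genes moved little. NUP58 measured 53, 53.3 and 57.2 CPM in HEK293T Ctrl, 43.7, 41.3 and 41.8 CPM in the libraries labelled SNRPD2KO and 44.6, 44.8 and 42 CPM in PUS7KO. It was below Ctrl in both (-0.37, adjusted p = 0.0013, and -0.32, adjusted p = 0.00454), though with the GC trend removed the first did not pass (-0.14, adjusted p = 0.148). In HuCCT1 it gave -0.15 (adjusted p = 0.0478), which did not pass without any 1 of the 3 Ctrl libraries or SNRPD2KO replicate 2 or 3 (adjusted p = 0.0511 to 0.19). The HuCCT1 call of NUP58 was also lost with DESeq2 (adjusted p = 0.0911). NUP98, a mobile phenylalanine-glycine protein made from the same transcript as NUP96, measured 184, 191 and 176 CPM in HEK293T Ctrl, 218, 216 and 203 CPM in the libraries labelled SNRPD2KO and 190.1, 178 and 176 CPM in PUS7KO. Only the group labelled SNRPD2KO was above Ctrl by the test (0.20, adjusted p = 0.0313), and not without Ctrl replicate 1 or 3 or SNRPD2KO replicate 1 or 2 (adjusted p = 0.0655 to 0.0869). That call was also lost with another scaling of the libraries (adjusted p = 0.0505). In HuCCT1 NUP98 rose from 166, 168 and 169 CPM to 209, 207 and 202 CPM (0.30, adjusted p = 0.000285). NUP62 gave 0.09 and -0.21 in HEK293T without passing and fell in HuCCT1 (-0.28, adjusted p = 0.00228), and NUP54 passed in no comparison with Ctrl (-0.20, -0.03 and 0.12).

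In HEK293T, the libraries labelled SNRPD2KO were then compared directly with PUS7KO, with no Ctrl library on either side. AHCTF1 was the 1 member of 32 (3.12%) that passed, lower in the libraries labelled SNRPD2KO than in PUS7KO (-0.43, adjusted p = 0.0309), beside 4.77% of all genes (1.57% higher and 3.2% lower). No member was higher after adjustment by edgeR's quasi-likelihood test or limma voom, while DESeq2 gave 1 higher and 2 lower, and at an unadjusted p under 0.05 edgeR's test gave 4 higher and 2 lower. Of the 32, 8 lay wholly above and 1 wholly below the PUS7KO range, beside 25.2% of all genes (12.6% each way). For NUP50 the difference was 0.01 with a 95% confidence interval from -0.19 to 0.21, and for NUP153 0.05 (from -0.09 to 0.19). TPR was lower by -0.38 (from -0.63 to -0.13, adjusted p = 0.0894) and RAE1 higher by 0.31 (from 0.11 to 0.51, adjusted p = 0.0933), neither past the threshold. The AHCTF1 call was lost without PUS7KO replicate 2 or 3 or SNRPD2KO replicate 1 or 2 (adjusted p = 0.0669 to 0.159) and when the GC trend was removed (-0.24, adjusted p = 0.205), and without SNRPD2KO replicate 3 the members passing were 2 higher and 2 lower.

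The log2 fold changes of the libraries labelled SNRPD2KO were compared between the 2 lines in 1 fit over 12 libraries, with the difference taken as HuCCT1 minus HEK293T. It passed for 21 members, 6 more positive and 15 more negative in HuCCT1 (65.6%, beside 40.7% of all 17617 genes tested, 19.8% positive and 20.9% negative). The median was -0.30, beside -0.01 for all genes. The 17617 genes were not limited to those tested in both lines, whereas every member was tested in both. These shares and medians therefore compare unlike sets. TPR differed by 3.67 ± 0.16 (adjusted p = 3.35e-11), which stood at place 238 from the top. AHCTF1 (0.87, adjusted p = 2.49e-05) and RANBP2 (0.80, adjusted p = 5.72e-05) followed in the same direction, with 0.49 and 0.32 once the GC trend was removed, and AAAS (-1.58, adjusted p = 0.00036) and SEC13 (-0.83, adjusted p = 4.63e-06) in the other. By the calls in each line, 3 members were higher in both (NUP188, NUP98 and NUP210), 6 lower in both (NUP58, RAE1, NUP153, NUP50, POM121 and POM121C), 3 lower in HEK293T and higher in HuCCT1 (AHCTF1, RANBP2 and TPR), and 1 the reverse (SEC13). Of 12695 genes tested in both lines, 12.6% were higher in both, 11.6% lower in both, 6.5% lower in HEK293T and higher in HuCCT1, and 5.54% the reverse. The HuCCT1 calls of AHCTF1 and RANBP2 did not pass with the GC trend removed. The lines were held in separate count tables, and line and table cannot be told apart.

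**Figure D3:**
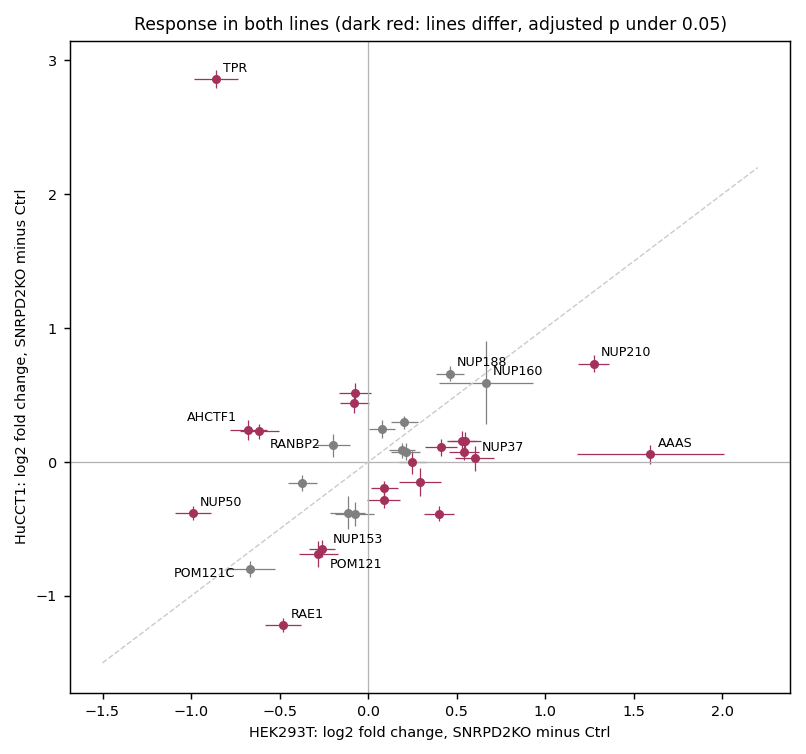
Log2 fold change of each gene in HEK293T (horizontal) and HuCCT1 (vertical), libraries labelled SNRPD2KO against Ctrl, with standard errors; the dashed line marks equal change and dark red marks a difference between lines past the adjusted threshold of 0.05. TPR stands alone at the upper left, and RAE1, NUP50, NUP153 and the POM121 pair lie at the lower left.

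Levels between genes were compared per kilobase of merged exons. For some genes the merged exons were much longer than the transcript with the most introns, so the places below depend on this choice of length. They held 5536 against 2059 bases in NUP50, 5111 against 1824 in NUP62 and 9350 against 2834 in NUP93. In HEK293T Ctrl, NUP205 was highest (87.3 ± 6.55 CPM per kilobase, SD, n = 3) and SEC13 next (63.5 CPM per kilobase), followed by NUP133 (33.6 CPM per kilobase), with no overlap between these neighbours. RAE1 (30.3), NUP153 (29.6) and NUP155 (28.4) came after it and overlapped one another. AAAS was lowest at 2.45 CPM per kilobase, and its range overlapped those of AHCTF1 (3.61) and NUP160 (3.68), the next above it. In HuCCT1 Ctrl, SEC13 was highest (74.9 CPM per kilobase), then RAE1 (43) and NUP50 (34.2), and TPR was lowest at 2.5 CPM per kilobase, overlapping NUP160 (2.74). In the HuCCT1 libraries labelled SNRPD2KO, TPR reached 18.2 CPM per kilobase, place 12 of 32, while RAE1 went from place 2 to place 11. POM121C took place 28 in HEK293T Ctrl and place 4 in HuCCT1 Ctrl, and its near-identical copy POM121 places 29 and 17.

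**Figure D4:**
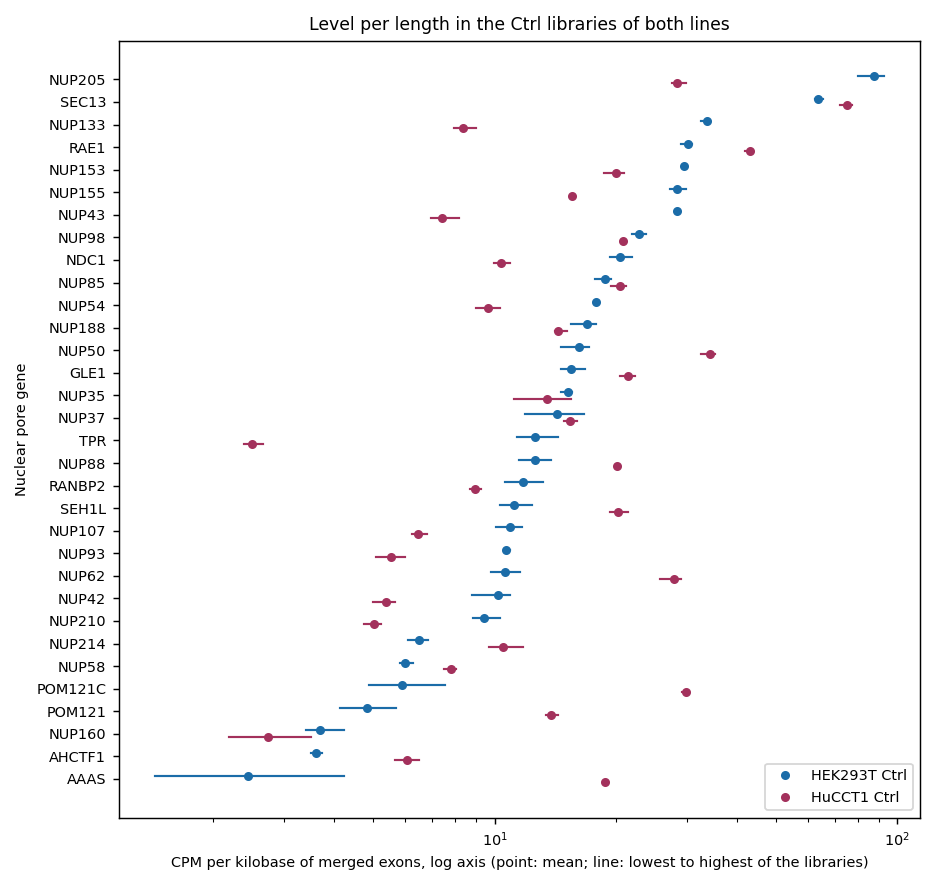
Level per kilobase of merged exons in the Ctrl libraries of HEK293T (blue) and HuCCT1 (dark red), ordered by the HEK293T mean, on a log axis; points are means and lines run from the lowest to the highest library. NUP205 and SEC13 lead in HEK293T, and TPR is the lowest gene in HuCCT1 at 2.5 CPM per kilobase.

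In HuCCT1, the direction of a member went with its number of introns. Pore genes are rich in introns, with a median of 16.5 (from 3 in NUP62 to 50 in TPR) beside 7 for all genes tested in HEK293T, counted in the GENCODE 29 transcript with the most. Of the 16 members with 17 or more introns, 9 were higher and 2 lower in the HuCCT1 libraries labelled SNRPD2KO (median log2 fold change 0.24). Of the 16 with 16 or fewer, none was higher and 9 were lower (median -0.22). Split at the same number, 57.0% of all genes above it were higher and 13.8% lower, while 23.9% of those below it were higher and 31.6% lower, so genes at large leaned the same way. Across the 32 members, Pearson's r between intron number and log2 fold change was 0.68 and Spearman's correlation 0.73, and without TPR 0.62 and 0.70, beside a Spearman's correlation of 0.25 over 14574 genes. These are descriptions over genes that share the same 6 libraries, and intron number also followed transcript length among members (Spearman's correlation 0.78). The split was chosen after the HuCCT1 values were seen.

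In HEK293T the same split showed no such pattern. Of the members with 17 or more introns, 8 were higher and 4 lower in the libraries labelled SNRPD2KO, and of those with fewer, 7 were higher and 5 lower. Of all genes above the split 26.6% were higher and 32% lower, and of those below it 27.3% and 25.4%. For PUS7KO the members were 5 and 4, and 6 and 5, beside 25.7% and 27.6%, and 25.9% and 23.1%. Transcript GC content gave a Spearman's correlation across the members of 0.30 for the libraries labelled SNRPD2KO against Ctrl (0.36 over 15406 genes), 0.15 for PUS7KO against Ctrl (0.18 over all) and 0.68 for the libraries labelled SNRPD2KO against PUS7KO (0.49 over all). Transcript length gave -0.30, -0.27 and -0.28 (-0.17, -0.12 and -0.15 over all). GC content ran from 38.3% in SEH1L to 59.3% in NUP62, with a median of 44.5% beside 48.8% for all genes. The letters TNTAA or TNTAG, the DNA spelling of the PUS7 consensus, occurred 7.07 times per kilobase in the median member and 6.0 in the median gene, and their frequency across members was almost the reverse of GC content (Spearman's correlation -0.88). Their frequency gave -0.47, -0.33 and -0.66 with the log2 fold changes in the same order (-0.31, -0.15 and -0.43 over all genes). GC content and these letters cannot be told apart here, and the part of length beside them was not tested.

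**Figure D5:**
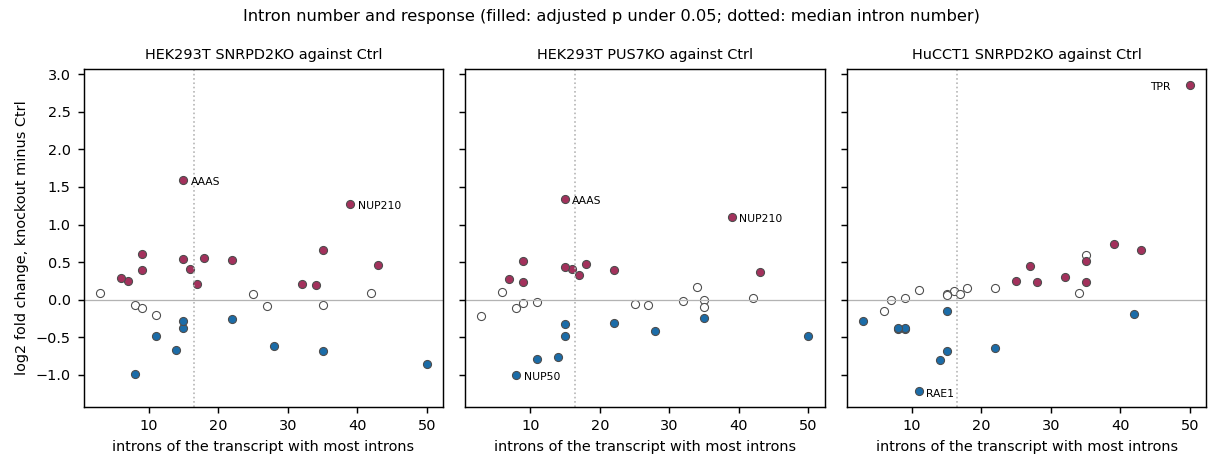
Log2 fold change of each gene against its number of introns in the 3 comparisons with Ctrl; filled points passed the adjusted threshold of 0.05 and the dotted line marks the members' median of 16.5 introns. In HuCCT1 no filled point left of the line is above 0, and in HEK293T both directions occur on both sides.

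Partners of the pore were read from lists of related genes. The counts of this and the next 2 paragraphs stand beside these shares of all genes tested. In the HEK293T libraries labelled SNRPD2KO 26.9% were called higher and 26.4% lower. In PUS7KO the shares were 25.6% and 23.8%, and in HuCCT1 28.8% and 28.4%. The importin alphas, which carry cargo with classical signals and are released by NUP50, gave calls in 1 direction: lower were 5 of 6 tested in the libraries labelled SNRPD2KO of HEK293T, 6 of 6 in PUS7KO and 4 of 6 in HuCCT1, with none higher. KPNA4 measured 130.3, 144 and 145 CPM in HEK293T Ctrl, 52.2, 55.3 and 61.8 CPM in the libraries labelled SNRPD2KO and 64, 67.5 and 57.7 CPM in PUS7KO. It fell without overlap (-1.31 and -1.15), and in HuCCT1 from 306, 311 and 321 to 179.8, 169 and 160 CPM (-0.88, adjusted p = 2.97e-07). KPNA1 fell in all 3 (-0.80, -0.86 and -0.83), and KPNA5 fell in the libraries labelled SNRPD2KO of HEK293T (-0.84) and gave 0.59 (adjusted p = 0.0641) in HuCCT1. In HuCCT1 KPNA5 was scarce, at 1.2 to 1.52 CPM in Ctrl and, without overlap, 1.84 to 2.25 CPM in the libraries labelled SNRPD2KO. Among 10 other import receptors tested, 3 were higher and 2 lower, 3 and 1, and 6 and 1 in the same order. IPO13 (1.08, 0.68 and 0.84) and IPO9 (0.51, 0.61 and 1.40) were higher in all 3, while TNPO1 was lower in both HEK293T comparisons (-0.70 and -0.43).

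Of 7 export receptors, 4 were higher and 1 lower in the libraries labelled SNRPD2KO of HEK293T, 2 and 1 in PUS7KO, and 4 and 2 in HuCCT1. XPO1, the main exporter of proteins, was the 1 lower in HEK293T (-0.46 and -0.33). XPO5, the exporter of microRNA precursors, was higher in HEK293T (0.61 and 0.47), and CSE1L, which returns importin alpha to the cytoplasm, was higher in HuCCT1 (0.92) with XPOT, the tRNA exporter, lower (-0.64). Of 7 Ran cycle genes, 3 were higher and none lower, 1 and none, and 1 and 4. RCC1, the exchange factor of Ran, was higher in both HEK293T comparisons (0.71 and 0.62), and RAN itself was lower in HuCCT1 (-0.51, adjusted p = 8.08e-06). Of 21 mRNA export genes tested, 8 were higher and 10 lower, 5 and 10, and 7 and 10. THOC6, a subunit of the THO complex, was higher in all 3 (1.48, 1.24 and 1.62), and FYTTD1, an export adaptor, lower in all 3 (-1.25, -0.86 and -0.53). NXF1, the main mRNA exporter, was lower in HEK293T (-1.16 and -1.22). Its partner NXT1 was higher in HEK293T (0.75 and 0.63) and lower in HuCCT1 (-0.88).

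Among 20 genes of the lamina and envelope, 10 were higher and 5 lower, 8 and 5, and 9 and 5. SYNE2, which links the envelope to actin, rose in HuCCT1 by 2.58 (adjusted p = 1.34e-08), and EMD, which encodes emerin, rose in HEK293T (0.94 and 0.82). TOR1AIP2 was lower in HEK293T (-1.0 and -0.84), and ANKLE2 (-0.95) and BANF1 (-0.83) in HuCCT1. Of 8 tested genes that seal the envelope, 3 were higher and 3 lower in both HEK293T comparisons and 1 higher and 4 lower in HuCCT1, where CHMP4B fell (-0.76, adjusted p = 9.33e-07). The partners of SEC13 and SEH1L in COPII and GATOR2 gave 5 higher and 6 lower of 13 in the libraries labelled SNRPD2KO of HEK293T, 3 and 5 of 13 in PUS7KO, and 5 and 6 of 12 in HuCCT1. SEC24A (-1.20, -1.0 and -0.62) and SEC24B (-0.73, -0.67 and -0.64) were lower in all 3, and WDR59 was higher in HuCCT1 (1.22). Beside the shares of all genes given above (49.4% to 57.2% called), the importin alphas were, of these 8 lists, the one with calls in a single direction in all 3 comparisons. Whether that differs from other genes was not tested.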

How the data were processed

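The authors deposited raw counts per gene, 1 table per cell line, and whole-number counts were read as deposited. Per the submitters' processing notes, cutadapt 4.2, HISAT2 2.2.1 and RSEM were named with the build hg38; their order, the annotation release and the strand setting of the counting are not given in the sources used here. The kit was stranded, per the labels' protocols. Libraries were grouped by genotype and line (3 a group). All genes passing filterByExpr (minimum count 10, minimum total 15) were fitted per line with edgeR 4.0.16 (quasi-likelihood test, TMM factors, two-sided, Benjamini-Hochberg adjustment, R 4.3.3). The line difference was an interaction over 12 libraries. DESeq2 1.42.0, limma voom 3.58.1, other scalings, filters, a replicate block, GC correction and each library left out were alternatives. The script was tested on simulated data with 200 changed genes. Chi-square per degree of freedom between replicates was 3.7 to 14.8, so no pair agreed within counting noise.

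Values in every library are printed for the 5 members with the largest change past the threshold in each comparison and the largest of each structural group. From each related list, the genes named are among the 2 with the largest change past the threshold per direction in a comparison. The members and the lists were chosen with earlier results of these data known. Lengths, introns and GC content come from GENCODE 29 (GRCh38), which held all 32 members and 97.0% of the tested genes. Opposite-strand neighbours with a mean count of 10 or more in HEK293T overlap NUP43, NUP88, NUP188, NUP98 and NUP62 (protein-coding) and GLE1, NUP107, NUP153, POM121, POM121C and SEC13 (non-coding), and may share reads with them. Neighbours were not checked by their HuCCT1 counts. TPR overlaps 1 gene on each strand, both below that mean count in HEK293T. Protein sequences were not used here.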

Additional observations from a re-analysis of the deposited data

Results flagged for a closer look

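The log2 fold change of the libraries labelled SNRPD2KO against Ctrl differed between HuCCT1 and HEK293T, by an interaction term in edgeR's quasi-likelihood test, for 21 of the 32 genes. The same term passed for 40.7% of all 17617 genes tested (19.8% positive and 20.9% negative), a set not limited to genes tested in both lines. The difference of log2 fold changes, HuCCT1 minus HEK293T, was 3.67 for TPR, 0.87 for AHCTF1, 0.80 for RANBP2, 0.56 for NUP50, 0.54 for NUP214 and 0.48 for NUP107. It was -1.58 for AAAS, -0.83 for SEC13, -0.78 for RAE1, -0.62 for NUP37, -0.58 for NUP210, -0.51 for GLE1, -0.49 for NUP42, -0.45 for POM121 and -0.44 for NUP85. It was -0.43 for NUP153, -0.42 for NUP62, -0.41 for NUP93, -0.35 for NUP88, -0.33 for NUP205 and -0.29 for NUP43. Of these, 14 passed in every alternative run, and NUP107, NUP43, NUP205, NUP62, NUP88, NUP42 and POM121 did not. NUP50, RAE1, NUP153 and POM121 (lower in both lines) and NUP210 (higher in both) passed in each line with the same sign, and the size differed. TPR, AHCTF1, RANBP2 and SEC13 passed in each line with opposite signs. With the GC trend removed the difference was 0.49 for AHCTF1, 0.32 for RANBP2, 0.10 (adjusted p = 0.466) for NUP107, -0.25 (adjusted p = 0.0676) for NUP62, -0.29 (adjusted p = 0.204) for POM121, -1.16 for NUP37 and -0.57 for NUP43. AAAS rested on 26 to 81 counts in HEK293T Ctrl.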

How the results depend on the processing

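The members called higher and lower stayed within 1.5 times the values given, under each alternative run, in both comparisons with HEK293T Ctrl, in HuCCT1 and between the lines, except that 9 instead of 15 were higher in the HEK293T libraries labelled SNRPD2KO at an adjusted p under 0.01. With the GC trend removed, NUP107 (0.23, adjusted p = 0.0129) and SEH1L (0.40, adjusted p = 0.00817) turned positive there; the cause was not tested. The median log2 fold change in that comparison was 0.07 with DESeq2, with DESeq2-type size factors and with protein-coding genes only, 0.06 with a minimum count of 30, 0.17 with no count filter and 0.23 with the GC trend removed, and 0.09 to 0.14 with a library left out. For PUS7KO against Ctrl the median was -0.05 with DESeq2, DESeq2-type size factors or a minimum count of 30, 0.07 with the GC trend removed and 0.06 with no count filter, and -0.06 to 0.02 with a library left out, so its sign is not fixed. Leaving out the count filter moved the median of all genes to -0.191 and -0.141 in these comparisons. For HuCCT1 the median was 0.03 with the GC trend removed. Between the lines it was -0.33 with DESeq2 or DESeq2-type size factors, -0.28 with a minimum count of 30 and -0.40 with no count filter, and -0.34 to -0.22 with a library left out.

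Between the HEK293T libraries labelled SNRPD2KO and PUS7KO, 1 member was higher with DESeq2 and 1 with no count filter, and the number lower was 2 with DESeq2, 2 with no count filter, 0 with the GC trend removed and 0 at an adjusted p under 0.01, with a median of 0.11 once the GC trend was removed. With a library left out, 0 to 2 were higher and 0 to 2 lower. The genes called over the whole table went from 758 to 104 with the GC trend removed, 31 at an adjusted p under 0.01, 1292 with no count filter, 464 with the 2 groups alone, and 22 (without SNRPD2KO replicate 1) to 1891 (without SNRPD2KO replicate 3) with a library left out. The replicate numbers do not pair the libraries: same-numbered libraries deviated together with correlations of -0.086 to 0.044. With the replicate block, the members higher and lower were 13 and 9, 11 and 8, 0 and 1, and 9 and 10 in the 4 comparisons within a line, and 6 and 15 between the lines. Depth limits AAAS in HEK293T, with 26 to 81 counts in Ctrl.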
